A study of Mus musculus with 2 samples.

Results

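The genes examined were 10 chemokines of the islet's stroma and macrophages, Cxcl1, Cxcl2, Cxcl10, Cxcl12, Cxcl16, Ccl2, Ccl3, Ccl4, Ccl5 and Ccl7. They were chosen by symbol out of 27998 genes, and each symbol matched 1 gene. Transcripts were counted by droplet single-cell RNA-seq of live islet cells sorted by flow cytometry. There were 2 libraries, a wild-type (WT) and a ghrelin-knockout (GKO) one, each made from the islets of 4 mice pooled together. The mice were 8-week-old C57BL/6N littermates fed standard chow ad libitum, and the GKO mice were homozygous for a germline ghrelin deletion, bred from heterozygotes. Because each genotype was 1 pool, genotype and pool cannot be told apart, no test between genotypes was possible, and the intervals given are 95% intervals that cover counting error only.

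Chemokines are small secreted proteins that guide leukocytes through G protein-coupled receptors, and the CXC and CC families are named for the spacing of their first cysteines. Cxcl1 and Cxcl2 recruit neutrophils through Cxcr2, Ccl2 and Ccl7 recruit monocytes through Ccr2, and Ccl3, Ccl4 and Ccl5 attract macrophages and T cells. Cxcl10 is the interferon-induced ligand of Cxcr3, Cxcl16 is a membrane-anchored ligand of Cxcr6, and Cxcl12 is the constitutive stromal ligand of Cxcr4. In islets, resident macrophages and fibroblasts lie next to the endocrine cells and the capillaries.

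The WT library held 7792 barcodes and 158067110 unique molecular identifiers (UMIs), and the GKO library held 7289 barcodes and 103511757 UMIs. A total of 7100 WT and 6346 GKO barcodes passed the filters. Ghrl, the targeted gene, had 43634 UMIs in the WT library and 280 in the GKO library. Both libraries shared 18 barcode sequences. Macrophage barcodes, with at least 0.3% of UMIs in C1qa, C1qb and C1qc, numbered 196 WT and 450 GKO. Stromal barcodes, with at least 0.3% in Dcn, Lum and Clec3b, numbered 264 and 660. Endothelial barcodes, with at least 0.3% in Plvap, Kdr, Flt1 and Emcn, numbered 578 and 436, and endocrine barcodes 5469 and 3971. Barcodes that passed more than one limit (10 WT, 13 GKO) and those with over 10% hormone UMIs (macrophage 17 and 31, stromal 15 and 28, endothelial 42 and 12) were set apart. The median depth was 10353 and 8914 UMIs in macrophage, 9238 and 8556 in stromal, 7013 and 7332 in endothelial, and 19766 and 14368 in endocrine barcodes. All 10 genes of a separate macrophage marker list were detected in the macrophage barcodes, at a summed 14321 CPM (UMIs per 1000000 UMIs of the class) in WT and 17313 in GKO, against 21.6 to 86.5 in the other 3 classes. Of 8 stromal markers all were detected in the stromal barcodes, at 25003 and 28747 CPM, against 54.1 to 323 in the other classes.

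Most of the genes neighbour another member in the GRCm38 genome. Cxcl1 (ENSMUSG00000029380, chr5:90891241-90893115) and Cxcl2 (ENSMUSG00000058427, chr5:90903871-90905938) are 10755 bp apart on the plus strand. Cxcl10 (ENSMUSG00000034855, chr5:92346638-92348889) lies 1440699 bp beyond them on the minus strand. Ccl2 (ENSMUSG00000035385, chr11:82035571-82037453) and Ccl7 (ENSMUSG00000035373, chr11:82045712-82047525) are 8258 bp apart. Ccl3 (ENSMUSG00000000982, chr11:83647844-83649355) and Ccl4 (ENSMUSG00000018930, chr11:83662584-83664683) are 13228 bp apart and on opposite strands, with Ccl5 (ENSMUSG00000035042, chr11:83525778-83530518) 117325 bp before Ccl3. Cxcl16 (ENSMUSG00000018920, chr11:70453983-70459984) and Cxcl12 (ENSMUSG00000061353, chr6:117168535-117181367) stand alone.

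The promoters of Cxcl1, Cxcl2 and Cxcl10 are shown because they carry the same short motif, and no promoter of Cxcl16 was in the table used. The sequences are RefSeq promoters on GRCm38.p6, printed 5′ to 3′ on the gene's strand. Capitals mark matches on either strand to a kB-like motif (GGG, any 3 bases, TTCC), and in Cxcl10 also to an ISRE-like motif (GAAA, any 2 bases, GAAA).
Cxcl1 (chr5:90891136-90891204, plus strand, 109 to 41 bases before the start): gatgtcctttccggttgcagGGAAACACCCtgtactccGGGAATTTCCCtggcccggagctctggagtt
Cxcl2 (chr5:90903782-90903850, plus strand, 117 to 49 bases before the start): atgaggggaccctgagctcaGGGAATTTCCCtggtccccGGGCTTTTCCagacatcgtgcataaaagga
Cxcl10 (chr5:92348964-92349122, minus strand, 233 to 75 bases before the start): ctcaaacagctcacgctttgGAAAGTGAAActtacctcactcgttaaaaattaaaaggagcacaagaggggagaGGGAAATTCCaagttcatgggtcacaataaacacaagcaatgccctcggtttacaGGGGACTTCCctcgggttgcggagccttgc

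Of the 10 genes, 5 had a promoter in the table used (Cxcl1, Cxcl2, Cxcl10, Cxcl12 and Ccl3). The kB-like motif was in 3 of these 5 windows, 250 bases before to 50 after the start, and in 5.56% of all 32851 windows. In Cxcl1 and in Cxcl2 one of the matches read on both strands, so that 2 matches overlapped by all but 1 base. The ISRE-like motif was in the Cxcl10 window and in 3.44% of all windows, and it overlapped no kB-like match. Matches describe the letters only.

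Each chemokine was highest in macrophage or stromal barcodes among the 4 classes. In the WT library 6 of the 10 were highest in macrophage and 4 in stromal barcodes, and in the GKO library the numbers were 8 and 2. The difference lay in Ccl2 and Ccl7, which were highest in stromal barcodes in WT and in macrophage barcodes in GKO. Without the deepest 10% of barcodes of each class, Ccl2 in WT was at 160 CPM in stromal and 239 CPM in macrophage barcodes, so that its order turned, and Ccl7 in WT was at 85.3 and 63.8 CPM. Endocrine barcodes held all 10 at 0.0802 to 5.56 CPM, and the leading class was 333 to 1895 times higher in WT and 78.8 to 1005 times higher in GKO. Most of the endocrine UMIs of Cxcl1, Cxcl2, Cxcl10, Ccl2, Ccl3 and Ccl4 in WT sat in a few barcodes: 11 of 5469 held 77.9% of the 763 Cxcl2 UMIs, each with 5 or more.

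**Figure D1:**
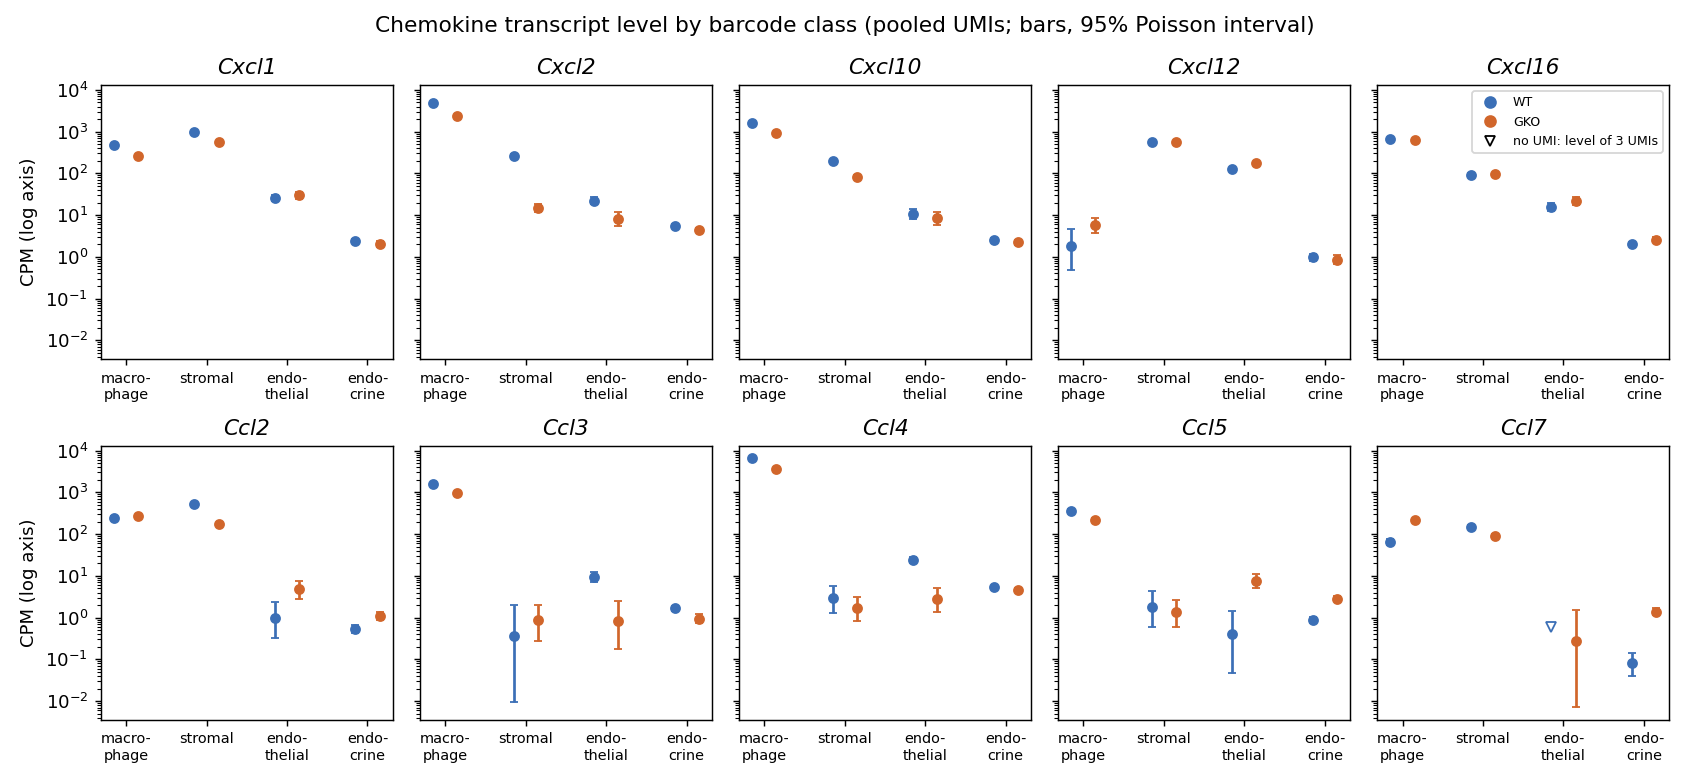
CPM of each chemokine (log axis) in macrophage, stromal, endothelial and endocrine barcodes of the WT and GKO libraries, with 95% Poisson intervals and an open triangle at the level of 3 UMIs where none was counted. Ccl3, Ccl4 and Ccl5 were at 24.2 CPM or less in the 3 classes other than macrophages, the highest being Ccl4 in WT endothelial barcodes, Cxcl12 was high in stromal and endothelial barcodes, and Cxcl1, Ccl2 and Ccl7 were high in both macrophage and stromal barcodes.

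Ccl3 and Ccl4, CC chemokines of activated macrophages, had most of their UMIs in macrophage barcodes. This class held 82.3% of all Ccl3 UMIs in WT and 82.8% in GKO, and 81.6% and 82.8% of all Ccl4 UMIs. Barcodes outside the 4 classes held 8.63% of the GKO Ccl3 and 8.47% of the GKO Ccl4 UMIs. Ccl4 stood at 6513 CPM (6408 to 6619) in WT and 3667 CPM (3611 to 3723) in GKO macrophage barcodes. The median macrophage barcode held 43.5 Ccl4 UMIs in WT and 7.0 in GKO, and the highest 386 and 447. After thinning each barcode to 2000 UMIs, 67.3% of WT macrophage barcodes (60.3 to 73.9%) and 55.5% of GKO ones (50.7 to 60.2%) had a Ccl4 UMI, against 0.439% and 0.932% of endocrine barcodes. The unthinned shares were 74.0% and 64.2%. The WT library was thus the higher one by level and by share. The share intervals missed each other narrowly at 2000 UMIs, and they overlapped at 5000 UMIs, with 72.0% (65.0 to 78.4%) in WT and 62.6% (57.7 to 67.2%) in GKO.

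Ccl3 gave 1568 CPM (1516 to 1620) in WT and 954 CPM (925 to 983) in GKO macrophage barcodes. Its thinned share was 59.2% in WT and 39.4% in GKO, with 0.0732% and 0.151% in endocrine barcodes. In stromal barcodes Ccl3 was counted 1 time in WT and 5 times in GKO, which is 0.368 and 0.862 CPM, below its endocrine levels of 1.68 and 0.949 CPM. A Ccl3 UMI was found in 1 of 264 WT and 4 of 660 GKO stromal barcodes without thinning.

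Ccl5 gave 366 CPM (341 to 391) in WT and 224 CPM (211 to 239) in GKO macrophage barcodes, and 1.84 and 1.38 CPM in stromal ones. It was detected in few macrophages, with a thinned share of 16.8% in WT and 10.5% in GKO against 0.110% and 0.176% in endocrine barcodes. Its highest barcode held 229 of the 824 WT UMIs and 295 of the 999 GKO UMIs. Unlike Ccl4, Ccl5 was therefore carried by a minority of macrophage barcodes in both libraries.

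Cxcl2, a neutrophil attractant, was at 4751 CPM (4662 to 4842) in WT and 2333 CPM (2288 to 2378) in GKO macrophage barcodes. The median macrophage barcode held 27.0 UMIs in WT and 6.0 in GKO. Its thinned share was 66.3% (59.3 to 72.9%) in WT and 53.2% (48.5 to 58.0%) in GKO, against 0.421% and 0.353% in endocrine barcodes. The macrophage class held 70.8% of all Cxcl2 UMIs of the WT library and 66.4% of those of the GKO library.

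Cxcl1, which acts on the same receptor, had another distribution, being highest in stroma. It was at 994 CPM (957 to 1033) in WT and 568 CPM (549 to 588) in GKO stromal barcodes, and at 482 and 257 CPM in macrophage barcodes. The stromal level was 2.06 times the macrophage level in WT and 2.22 times in GKO. Thinned shares in stroma were 43.3% (37.1 to 49.6%) and 29.3% (25.8 to 33.1%), against 0.329% and 0.202% in endocrine barcodes.

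Cxcl10 was at 1648 CPM (1596 to 1702) in WT and 907 CPM (879 to 936) in GKO macrophage barcodes, and at 196 and 83.7 CPM in stromal ones. Its macrophage level was 8.40 times its stromal level in WT and 10.8 times in GKO. The thinned macrophage share was 48.5% in WT and 35.8% in GKO, against 0.366% and 0.227% in endocrine barcodes.

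Cxcl16 was the member most evenly spread over macrophages. It was at 668 CPM (634 to 702) in WT and 636 CPM (613 to 660) in GKO macrophage barcodes, and these intervals overlapped. Without thinning, 95.4% of WT and 93.1% of GKO macrophage barcodes had a Cxcl16 UMI, with medians of 6.5 and 5.0 UMIs, against 2.93% and 2.77% of endocrine barcodes. Thinned, the shares were 74.5% (67.8 to 80.4%) and 62.0% (57.3 to 66.5%), and these intervals did not overlap. At 5000 UMIs the shares were 93.0% (88.3 to 96.2%) and 88.2% (84.7 to 91.1%), with overlapping intervals. Stromal barcodes held 91.7 and 95.9 CPM.

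Ccl2 and Ccl7, the Ccr2 ligands, were shared between stroma and macrophages and were concentrated in few barcodes of each. In macrophages Ccl2 was at 244 CPM (224 to 265) in WT and 266 CPM (251 to 281) in GKO, and the intervals overlapped. In stroma Ccl2 was at 529 CPM (502 to 557) in WT and 175 CPM (165 to 187) in GKO. The thinned stromal shares of Ccl2 were nevertheless close, 11.4% (7.78 to 15.98%) in WT and 10.1% (7.88 to 12.8%) in GKO, against 0.0366% and 0.101% in endocrine barcodes. Ccl7 was at 63.9 CPM (53.9 to 75.2) in WT and 218 CPM (205 to 232) in GKO macrophages, and at 152 and 92.1 CPM in stroma. Its thinned macrophage share was 4.59% (2.12 to 8.54%) and 9.84% (7.24 to 12.99%), against 0.0366% and 0.126% in endocrine barcodes. Endothelial barcodes held 0 Ccl7 UMIs in WT, where 3 UMIs would be 0.600 CPM, and 1 in GKO.

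Cxcl12 was the stromal and endothelial member. It stood at 551 CPM (523 to 579) in WT and 558 CPM (538 to 577) in GKO stromal barcodes, at 124 CPM (115 to 134) and 176 CPM (163 to 191) in endothelial ones, and at 1.77 and 5.84 CPM in macrophages. Thinned shares were 44.5% and 51.2% in stroma and 15.6% and 18.4% in endothelium, against 0.110% and 0.151% in endocrine barcodes. It was the only one of the 10 for which the endothelial class was the next highest after the leading class in both libraries.

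Between the libraries, 7 of the 10 chemokines were lower and 3 higher in GKO than in WT macrophage barcodes. Past 2-fold were 1 lower, Cxcl2, against 2.53% of the 9883 genes with at least 20 UMIs, and 2 higher, Ccl7 and Cxcl12, against 3.77% (6.3% in either direction). The median log2 ratio of GKO to WT was -0.71 over the 10 and 0.09 over all genes. Cxcl2 had a log2 ratio of -1.03 (-1.07 to -0.99), close to the limit. Cxcl1 (-0.91), Cxcl10 (-0.86), Ccl4 (-0.83), Ccl3 (-0.72) and Ccl5 (-0.70) had intervals below 0 but were within 2-fold. Cxcl16 (-0.07) and Ccl2 (0.12) had intervals that included 0. Ccl7 had a ratio of 1.77 (1.52 to 2.03), and Cxcl12, with 4 and 26 UMIs, 1.72 (0.19 to 3.70). Cxcl12 met the 20-UMI limit through the GKO library alone, so its place in the count past 2-fold is not read as a difference. Its macrophage levels were 1.77 and 5.84 CPM, against 551 and 558 CPM in stroma. The stromal marker list summed to 271 and 323 CPM in macrophage barcodes. The part of stray stromal RNA in this ratio was not tested.

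**Figure D2:**
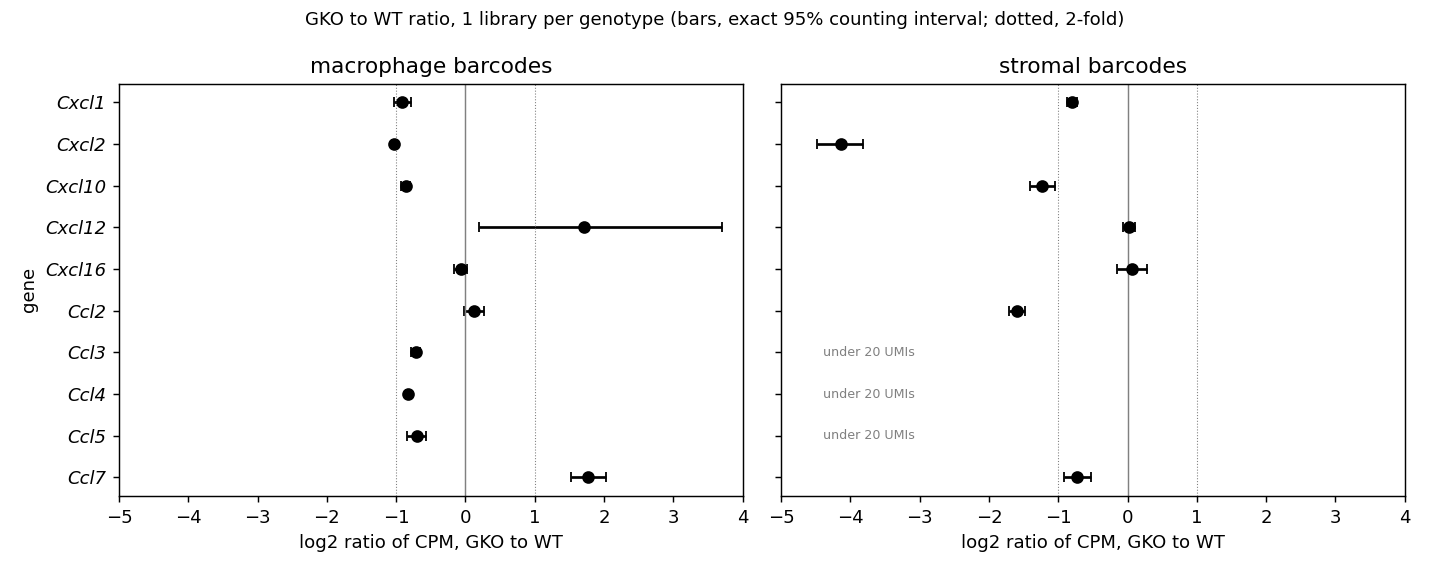
Log2 ratio of CPM, GKO to WT, of each chemokine in macrophage and in stromal barcodes, with exact 95% counting intervals from 1 library per genotype and dotted lines at 2-fold. In macrophages Ccl7 and Cxcl12 lay above 1 and Cxcl2 just below -1, and in stroma Cxcl2, Ccl2 and Cxcl10 lay below -1.

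In stromal barcodes 7 of the 10 had at least 20 UMIs, and 5 of these were lower and 2 higher in GKO. Past 2-fold were 3 lower, Cxcl2 (-4.14), Ccl2 (-1.59) and Cxcl10 (-1.23), against 2.84% of 11637 genes, and 0 higher, against 4.0% (6.85% in either direction). The median was -0.81 over the 7 and 0.10 over all genes. Cxcl1 was at -0.81 (-0.88 to -0.73) and Ccl7 at -0.72 (-0.91 to -0.53). Cxcl12 (0.02) and Cxcl16 (0.07) had intervals that included 0, and both were slightly below 0 under TMM scaling (-0.06 and -0.01).

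The stromal differences of Cxcl2, Ccl2 and Ccl7, and part of that of Cxcl1, rested on few WT barcodes. Of the 728 WT Cxcl2 UMIs, 706 lay in 10 of 264 barcodes, each with 16 to 133 Cxcl2 UMIs, while 3 of 660 GKO barcodes had 10 or more and the highest held 14. The 10 WT barcodes had a median of 25465 UMIs and also held 642 of the 1437 Ccl2 UMIs and 970 of the 2701 Cxcl1 UMIs. Among them, 2 had 10 or more UMIs of the macrophage list, the higher one 138. The deepest 10% of WT stromal barcodes, 27 of 264, held 91.1% of its Cxcl2, 77.3% of its Ccl2, 57.9% of its Ccl7 and 44.5% of its Cxcl1 UMIs. The deepest 66 of the GKO stromal barcodes held 14.8%, 12.98%, 11.99% and 14.8%. Without the deepest 10% of either library, the log2 ratio was 0.26 for Ccl2, 0.25 for Ccl7, -0.28 for Cxcl1, -0.97 for Cxcl2 and -1.002 for Cxcl10. Cxcl10 was thus still past 2-fold, and the 10 Cxcl2-rich WT barcodes held 103 of its 533 UMIs.

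The same contrast appeared when stromal barcodes were divided by marker share. Of the WT stromal barcodes, 94 had 0.3 to 1% and 170 had 1% or more of their UMIs in Dcn, Lum and Clec3b, against 122 and 538 in GKO. With 1% or more, none of the 7 chemokines was past 2-fold: Ccl2 had 361 CPM in WT and 187 in GKO (-0.95, -1.10 to -0.79), Cxcl1 703 and 613 (-0.20), Cxcl10 117 and 82.2 (-0.50), and Ccl7 119 and 109.7 (-0.11). With 0.3 to 1%, Cxcl2 had 568 CPM in WT and 14.0 in GKO, Cxcl1 1355 and 399, Ccl2 737 and 130, and Ccl7 194 and 25.6. These low-share barcodes differed in other genes too. Clu, a secreted chaperone, was at 3070 CPM in WT and 773 in GKO, and the contractile genes Acta2 (1230.4 and 4917 CPM) and Tagln (1094 and 5160 CPM) went the other way. The 2 libraries therefore did not hold the same barcodes between the limits, and the part of this in the chemokine ratios was not tested.

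**Figure D3:**
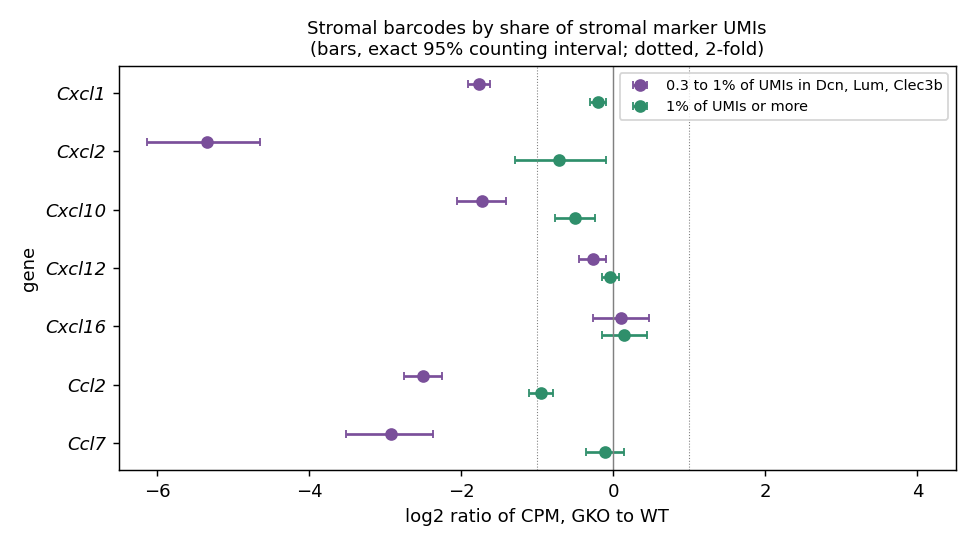
Log2 ratio of CPM, GKO to WT, of 7 chemokines in stromal barcodes with 0.3 to 1% and with 1% or more of UMIs in Dcn, Lum and Clec3b, with exact 95% counting intervals and dotted lines at 2-fold. Cxcl1, Cxcl2, Cxcl10, Ccl2 and Ccl7 lay below -1 in the first set and between -1 and 0 in the second, and Cxcl12 and Cxcl16 lay near 0 in both.

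Per barcode, most values of the concentrated members were 0. The highest stromal barcode held 246 Cxcl1 UMIs in WT and 129 in GKO, and the highest Ccl2 barcode 239 and 110. In macrophages the 10% of barcodes with most Ccl4 held 38.1% of the WT and 48.6% of the GKO Ccl4 UMIs, and the 10% with most Cxcl16 held 25.7% and 29.3% of its UMIs.

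**Figure D4:**
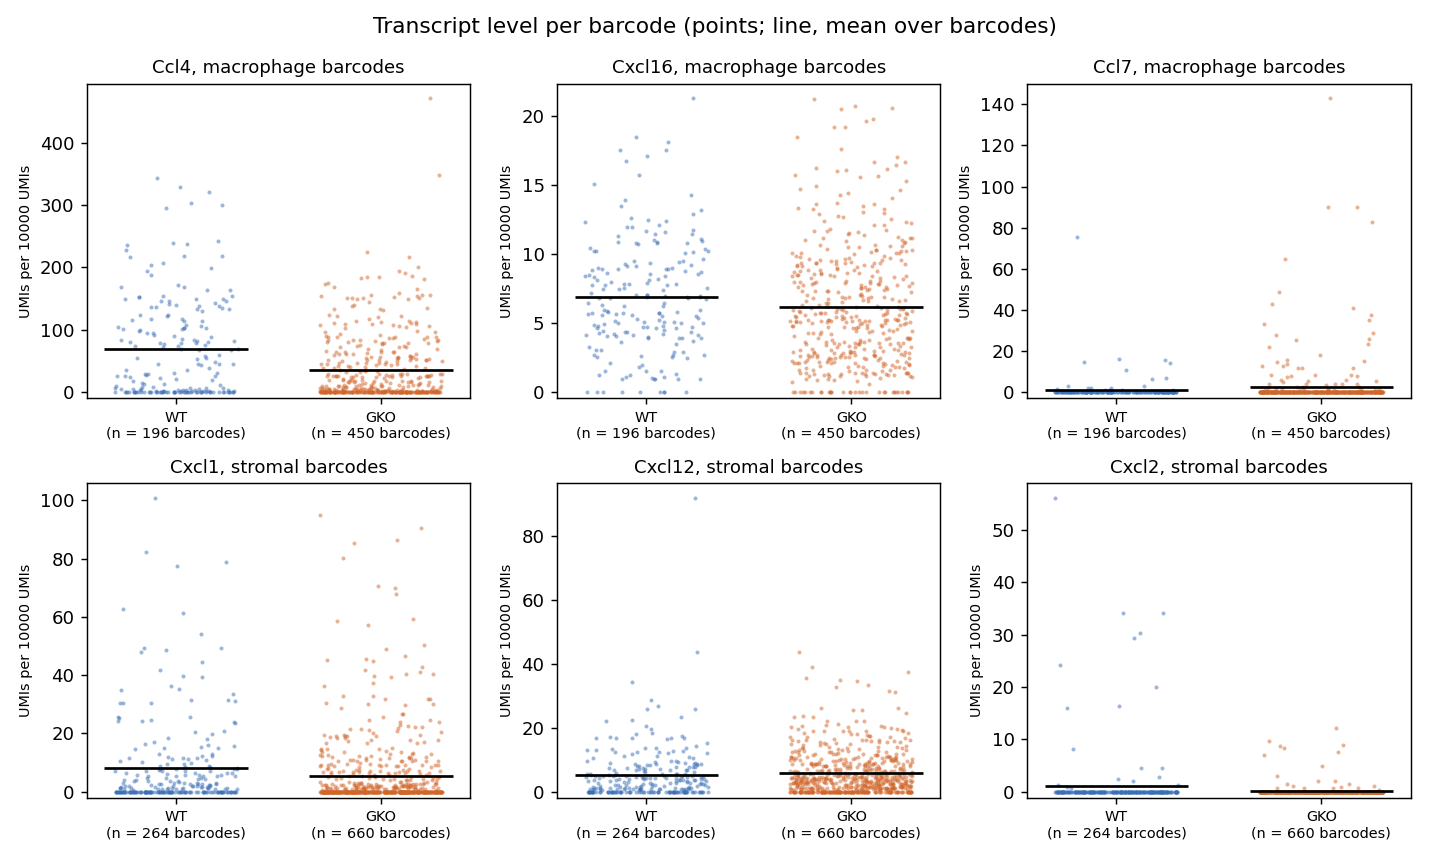
UMIs per 10000 UMIs of 6 gene and class pairs in single barcodes of the WT and GKO libraries (points, with a line at the mean over barcodes): Ccl4, Cxcl16 and Ccl7 in 196 WT and 450 GKO macrophage barcodes, and Cxcl1, Cxcl12 and Cxcl2 in 264 WT and 660 GKO stromal barcodes. The ranges of the libraries overlap in every panel, Cxcl16 is spread over nearly all macrophages, and Ccl7 and stromal Cxcl2 are at 0 in most barcodes.

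In endothelial barcodes 9 of the 10 had at least 20 UMIs, 3 lower past 2-fold in GKO against 2.99% of 11011 genes and 2 higher against 1.06% (4.05% in either direction). All 5 came from few barcodes. The 3 lower ones were Cxcl2 (112 and 29 UMIs), Ccl3 (48 and 3) and Ccl4 (121 and 10), of which single WT barcodes held 67, 47 and 109. The 2 higher ones were Ccl2 (5 and 17 UMIs) and Ccl5 (2 and 27), of which single GKO barcodes held 17 and 25. Without the top barcode of each gene in each library, 0 were past 2-fold. Cxcl12, at 124 and 176 CPM, had a log2 ratio of 0.51 (0.35 to 0.67).

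In endocrine barcodes all 10 had at least 20 UMIs, with 0 lower past 2-fold against 1.36% of 15736 genes and 3 higher (Ccl2, Ccl5 and Ccl7) against 2.91% (4.27% in either direction). The median over all genes was 0.23. All 3 were at 2.85 CPM or less in both libraries, and single GKO barcodes held 147 of 222 Ccl5 UMIs and 45 of 109 Ccl7 UMIs.

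The macrophage barcodes were then divided by Mrc1, a mannose receptor gene of some macrophages, a division chosen after values were seen. A Mrc1 UMI was found in 70 of 196 WT barcodes (35.7%, 29.0 to 42.9%) and 258 of 450 GKO barcodes (57.3%, 52.6 to 62.0%), at close median depths of 9686 and 8606 UMIs. Thinned to 2000 UMIs the shares were 21.9% and 40.5%. The GKO library therefore held more Mrc1-positive macrophage barcodes by share.

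The members most on the Mrc1 side in both libraries were Ccl2 and Ccl7. Cxcl12 had few UMIs, 2 with and 2 without Mrc1 in WT and 21 and 5 in GKO. Its log2 ratios with to without were 1.03 (-2.75 to 4.82) and 1.76 (0.32 to 3.52). In WT, Ccl2 was at 582 CPM with and 79.2 CPM without a Mrc1 UMI, and in GKO at 409.8 and 87.5 CPM. Ccl7 was at 183 and 5.94 CPM in WT, and at 373 and 27.1 CPM in GKO. The log2 ratios with to without were 2.88 (2.58 to 3.18) and 2.23 (2.00 to 2.47) for Ccl2, and 4.94 (3.97 to 6.10) and 3.78 (3.38 to 4.203) for Ccl7. Ccl4 and Cxcl2 were lower with Mrc1, Ccl4 by log2 ratios of -0.57 in WT and -1.09 in GKO and Cxcl2 by -0.58 and -0.91. Ccl3 was also lower, at -0.70 and -0.65, and Ccl5 at -0.32 in WT and -2.43 in GKO.

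**Figure D5:**
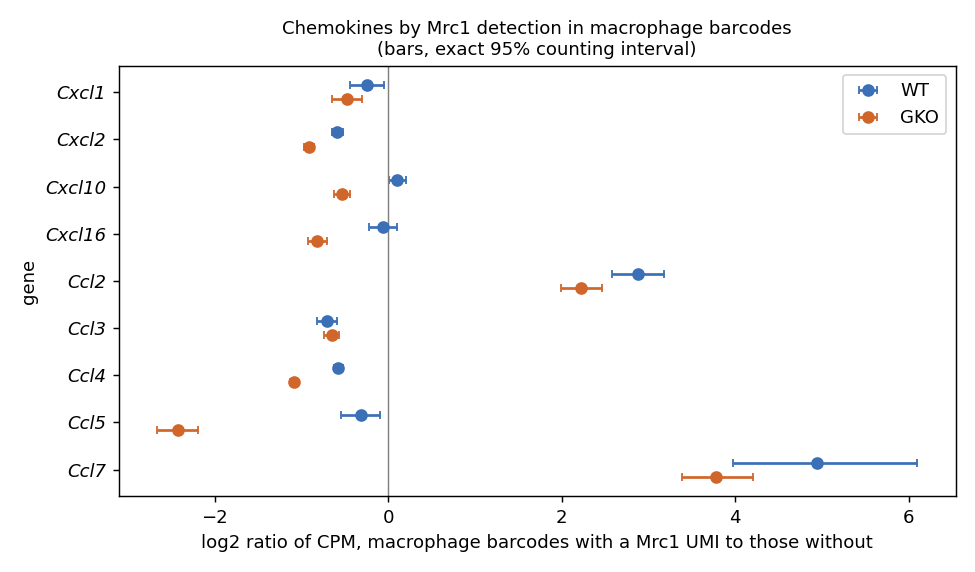
Log2 ratio of CPM, macrophage barcodes with a Mrc1 UMI to those without, for 9 chemokines in the WT and the GKO library, with exact 95% counting intervals. Cxcl12, with few UMIs, is left out. Ccl2 and Ccl7 lay above 2 in both libraries, Cxcl1, Cxcl2, Ccl3, Ccl4 and Ccl5 lay below 0 in both, and Cxcl10 was just above 0 in WT and below it in GKO.

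Within these sets the library differences were not all alike. With a Mrc1 UMI, the GKO to WT log2 ratio was -1.09 for Cxcl2, -1.19 for Cxcl10, -1.01 for Ccl4, -2.05 for Ccl5 and 1.03 (0.77 to 1.30) for Ccl7. Without a Mrc1 UMI it was -0.76 for Cxcl2, -0.56 for Cxcl10, -0.49 for Ccl4 and 0.06 (-0.09 to 0.22) for Ccl5, and Ccl7, with 9 and 54 UMIs, was at 2.19 (1.16 to 3.40). Cxcl2, Cxcl10, Ccl3, Ccl4 and Cxcl1 were lower and Ccl7 higher in GKO in both sets, while Ccl5 was near 0 without Mrc1. Cxcl16 was at -0.45 with and at 0.30 without a Mrc1 UMI. Ccl2 was lower in GKO with a Mrc1 UMI, at -0.51 (-0.67 to -0.34), opposite to Ccl7, and at 0.14 (-0.20 to 0.49) without one. Another division, by Itgax, was also chosen after values were seen. Cxcl1, Cxcl2, Cxcl10, Ccl3 and Ccl4 were again lower and Ccl7 higher in GKO in both sets. Ccl2 was at 0.43 (0.14 to 0.72) with and -0.12 (-0.30 to 0.05) without an Itgax UMI, and Ccl5 at -0.41 and -1.39.

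Some members were found together in the same barcodes, given here as descriptions over barcodes of 1 library. In macrophages the Pearson correlation of log2(CPM + 100) was 0.66 in WT (196 barcodes) and 0.57 in GKO (450) for Ccl3 and Ccl4, 0.45 and 0.45 for Cxcl1 and Cxcl2, and 0.37 and 0.52 for Ccl2 and Ccl7. In thinned WT macrophages 83.6% of barcodes with Ccl3 also had Ccl4, against 43.8% of those without Ccl3. In GKO the shares were 82.4% and 38.0%. In stroma Ccl2 and Ccl7 had 0.71 in WT (264 barcodes) and 0.42 in GKO (660), and Cxcl1 and Ccl2 had 0.47 and 0.41. Of thinned stromal barcodes with Ccl2, 86.2% in WT and 68.3% in GKO also had Cxcl1, against 43.3% and 29.3% of all. Each of the pairs Cxcl1 with Cxcl2, Ccl2 with Ccl7 and Ccl3 with Ccl4 consists of the neighbouring genes named above. Some pairs that are not neighbours were correlated too, such as Cxcl10 and Ccl4 in macrophages, at 0.44 in WT and 0.27 in GKO. In stroma the neighbours Cxcl1 and Cxcl2 had 0.34 in WT and 0.25 in GKO, below Cxcl1 and Ccl2. Stromal Cxcl12 had correlations of 0.04 and -0.09 with Cxcl1. Barcodes of a library share its free RNA and differ in depth, which moves such values.

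Barcodes with over 10% hormone UMIs were compared per 100 UMIs of C1qa, C1qb and C1qc. Ccl4 was at 46.8 per 100 marker UMIs in the 196 WT macrophage barcodes and at 17.6 in the 17 hormone-rich ones, and at 23.8 and 15.6 in GKO. Cxcl2 was lower in the WT hormone-rich barcodes (34.2 and 19.5 per 100) and higher in the GKO ones (15.1 and 19.2). Cxcl12 per 100 UMIs of Dcn, Lum and Clec3b was 4.42 and 5.64 in WT stroma and 3.38 and 4.199 in GKO. Hormone-rich barcodes of the macrophage kind thus held Ccl4 and Cxcl2, and those of the stromal kind held Cxcl12. Other members varied. Ccl5 had 1 UMI in the WT and 38 in the GKO macrophage ones, and Cxcl2 had 54 and 0 in the stromal ones.

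Outside the 4 classes, barcodes were grouped by marker lists. Cxcl2 was at 18659.9 CPM in the 40 GKO barcodes of the neutrophil list, 37 of them with a UMI, and the 5 WT barcodes of that list had 0. Over all barcodes outside the 4 classes the list summed to 1841 CPM in WT and 444 in GKO. The 5 and the 40 barcodes were therefore not compared as like cells. The same 40 GKO barcodes held Ccl3 at 1518 CPM (1239 to 1841), with a UMI in 22, above the 954 CPM of the GKO macrophages. They held Ccl4 at 1680 CPM, with a UMI in 12, below the macrophage level, and Cxcl1 at 1415 CPM (1146 to 1728), with a UMI in 14, above the 568 CPM of the GKO stroma. Cxcl1 and Cxcl16 were found in barcodes of the ductal list, Cxcl1 at 238 CPM in WT (71 barcodes) and 284 in GKO (92), and Cxcl16 at 247 and 297 CPM, with a UMI in 80.3% and 89.1% of barcodes. Cxcl12 was at 104 and 179 CPM in barcodes of the mural list. Cxcl10 was at 369 and 368 CPM in barcodes of the B cell list, with a UMI in 18 of 41 WT and 12 of 50 GKO barcodes. The 5 barcodes with most Cxcl10 held 86.5% and 90.2% of these UMIs. Ccl5 was at 12059 and 9788 CPM in the 4 and 3 barcodes of the dendritic list and at 7196 and 5931 CPM in the 5 and 5 of the T or NK cell list.

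Of 27 other chemokine genes listed, 26 were in the files, and 13 had at least 20 UMIs in macrophages, 12 of them higher and 1 lower in GKO, with 5 higher and 0 lower past 2-fold, against 3.77% and 2.53% of all genes. The median log2 ratio was 0.63, against 0.09 over all genes. One of the 5, Xcl1, named after its values were seen, had 0 WT and 49 GKO UMIs and met the 20-UMI limit through the GKO library alone. Without it 11 of 12 were higher, 4 past 2-fold, with a median of 0.57. Pf4, a platelet-factor chemokine, was at 543 CPM in WT and 1099 in GKO, Ccl8 at 122 and 379.9 CPM, Cxcl9 at 95.4 and 217, and Ccl24 at 34.6 and 87.6. Ccl12 was at 139.8 and 266 CPM, Ccl6 at 265 and 377, Ccl9 at 166 and 257, and Cxcl13 at 208 and 259. The named genes were thus opposite in direction to Cxcl2, Ccl3 and Ccl4 in the same barcodes. Pf4 and Ccl8 were also Mrc1-side genes, with log2 ratios with to without Mrc1 of 4.46 and 3.64 in WT and 4.69 and 5.30 in GKO. Within the sets Pf4 was not past 2-fold, with GKO to WT ratios of 0.35 (0.25 to 0.44) with and 0.12 (-0.26 to 0.49) without a Mrc1 UMI. Ccl8 was still past 2-fold with a Mrc1 UMI, at 1.07 (0.87 to 1.27). Without one, from 39 and 34 UMIs, Ccl8 was at -0.59 (-1.30 to 0.11).

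In stroma 13 of the other chemokines had at least 20 UMIs, 5 higher and 8 lower in GKO, with 1 higher and 3 lower past 2-fold, against 4.0% and 2.84% of all genes, and a median of -0.22, against 0.10. Cxcl13, the B cell attractant, was at 1971 CPM in WT and 1135 in GKO. Its direction turned with the marker share. Cxcl13 was at 4372 and 3807 CPM with 0.3 to 1% and at 30.6 and 429.6 CPM (3.81, 3.39 to 4.26) with 1% or more. In the low-share set 15 WT barcodes held 5308 of its 5354 UMIs, and 21 GKO barcodes held 4612 UMIs. With 1% or more, all 46 WT UMIs lay in 1 barcode and the 1970 GKO UMIs in 21. These values thus rested on few barcodes in both sets. Ccl11 was at 371 and 496 CPM and Cxcl14 at 209.5 and 335. Cxcl9 was at 83.2 and 6.55 CPM, and Ccl19, summed over 2 features, at 93.2 and 63.8. Ccl21a, summed over 2 features and uncertain because of near-identical copies in the genome, had 1383 UMIs in WT and 1 in GKO.

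Of the 16 chemokine receptors listed, 6 had at least 20 UMIs in macrophages, 4 higher and 2 lower in GKO. None of these 6 was past 2-fold, against 6.3% of all genes in either direction. Cx3cr1 was at 181 and 260.4 CPM, Cxcr4 at 118 and 112, and Ccr2 at 45.3 and 70.0. Ackr3, the scavenging receptor of Cxcl12, was at 96.8 and 134 CPM in endothelial and 44.2 and 53.1 CPM in stromal barcodes. Cxcr2, the receptor of Cxcl1 and Cxcl2, had 1 and 0 UMIs in macrophages, 0 in stroma and 0 in endothelium, and 6 and 57 outside the 4 classes. Cxcr6, the receptor of Cxcl16, had 0 UMIs in macrophages and stroma of both libraries. In the 4 classes Ccr1 reached 27.1 CPM, Ackr4 12.1, Ccr7 8.10, Cxcr3 6.74, Ackr1 6.55 and Ackr2 3.31, and Cxcr1, Cxcr5 and Ccr3 stayed at or below 0.887.

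A list of 15 activation genes, targets and regulators of NF-kB signalling, was read beside the chemokines. In macrophages 12 of the 15 were lower in GKO, 2 past 2-fold against 2.53% of all genes, with a median of -0.40 against 0.09. Outside the 4 classes the list went the other way, with 15 of 15 higher and a median of 0.78 against 0.14. In endocrine barcodes 14 of 15 were higher, but the median of 0.31 was near the 0.23 over all genes. There 1 of the 15 was higher past 2-fold, against 2.91% of all genes. In macrophages Tnf was at 1058 CPM in WT and 434 in GKO, and Nfkbiz at 821 and 438. Il1b was at 1525 and 1107, and Nfkbia at 2626 and 1997. Icam1 was at 184 and 105 CPM, Tnfaip3 at 401 and 304, Relb at 95.8 and 59.5, Sod2 at 128 and 99.7, Cd83 at 1099 and 917, Nfkb1 at 82.5 and 73.4 and Ptgs2 at 51.0 and 36.1. Ier3 (307 and 364 CPM) and Zfp36 (1221 and 1299 CPM) were higher in GKO. In stroma 13 of 14 were lower, 5 past 2-fold against 2.84% of all genes, with a median of -0.58 against 0.10. Nfkbia was at 941 and 430.2 CPM, Ier3 at 346 and 160.1 and Ptgs2 at 106 and 49.3. The list was not divided by depth or marker share, so how far few WT barcodes carried it is not known. Il6 was the one higher in GKO, at 56.0 and 82.3 CPM. The other stromal members of 50 CPM or more were Nfkbiz, Zfp36, Sod2, Icam1, Nfkb1, Relb, Tnfaip3 and Birc3. All 12 immediate early genes listed were at 50 CPM or more in macrophages and in stroma, 10 of 12 lower in GKO in each. Their medians were -0.08 and -0.26, against 0.09 and 0.10 over all genes. In each class 0 were past 2-fold, against 2.53% and 2.84% of all genes lower. In endocrine barcodes and outside the 4 classes 12 of 12 were higher, with medians of 0.50 and 0.44 against 0.23 and 0.14. Of 12 interferon-induced genes, 6 were higher and 6 lower in macrophages, with a median of -0.04 and 2 higher past 2-fold, against 3.77% of all genes. Cxcl9 was on this list and among the other chemokines, and it was counted in both. More were higher than lower elsewhere. In endothelial barcodes 11 of 11 were higher, with a median of 0.73 against 0.03 over all genes, and in stroma 7 of 11 (0.43 against 0.10). In endocrine barcodes 9 of 12 were higher, with a median of 0.33 near the 0.23 over all genes. Outside the 4 classes 10 of 12 were higher (0.75 against 0.14). The part of these genes' differences in the chemokine ratios was not tested.

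Likeness of pattern was measured as the Pearson correlation of log2(CPM + 1) over the 8 pools of 4 classes and 2 libraries, among 14969 genes. Ctse was the gene most like Ccl3 (0.998) and Ccl4 (0.998), Slc38a1 the most like Cxcl2 (0.996), Gpx8 the most like Cxcl12 (0.997), and Metrnl the most like Cxcl16 (0.995). For Cxcl1 it was Gem (0.991), for Cxcl10 Abcb1b (0.994), for Ccl2 Ifi27l2a (0.989), for Ccl5 Mx1 (0.988) and for Ccl7 Pvt1 (0.997). Such values were common, since 275 genes exceeded 0.95 with Ccl3 and 350 with Cxcl12, and pools of a class share its markers.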

How the data were processed

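Islets were isolated by collagenase, handpicked, dispersed and sorted as live cells, and libraries were made by 3′ droplet chemistry. The deposited values are raw UMI counts per gene and barcode, which the authors made with Cell Ranger 5.0.1 on mm10, with reads down-sampled where required. These matrices precede the ambient-RNA correction described in the study's methods. Barcodes with fewer than 500 genes or over 10% mitochondrial UMIs were left out. No doublet caller was run. Barcodes passing more than one class limit, and those of the 3 non-endocrine classes with over 10% hormone UMIs, were set apart. UMIs were summed per class and library and divided by the class total (CPM). Ratios had exact conditional binomial intervals, CPM exact Poisson intervals and shares exact Clopper-Pearson intervals. Only the ratio intervals were checked on simulated data, which were Poisson counts of pools. Those counts lack the uneven spread of UMIs over barcodes, so the check does not cover it. With 1 library per genotype, called means past 2-fold with at least 20 UMIs. Barcodes were thinned to 2000 UMIs for shares, leaving out 0 and 3 macrophage and 10 and 39 stromal barcodes. Named genes were the 10 chemokines, the 3 most alike of each by pattern, the listed receptors except 1 that is not reported here, and other listed chemokines and activation genes of at least 50 CPM in a class. The chemokines and lists were chosen with earlier results of these data known. The Mrc1 and Itgax divisions and the division of stroma by marker share were chosen after values were seen. TMM factors came from edgeR 4.0.16, and other steps ran in Python 3.11.15. Gene positions came from GENCODE on GRCm38. Alternatives changed class and hormone limits, filters, scaling, weighting and the barcodes left out.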

Additional observations from a re-analysis of the deposited data

Results flagged for a closer look

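Ccl7 differed between the libraries in opposite directions in different barcodes, with log2 ratios of GKO to WT of 1.77 in macrophage, -0.72 in stromal and 4.12 in endocrine barcodes. Ccl2 did so as well, at -1.59 in stromal against 2.25 in endothelial and 1.03 in endocrine barcodes. Ccl5 was at -0.70 in macrophage against 4.24 in endothelial and 1.69 in endocrine barcodes. The differences between classes were not tested, since each genotype was 1 pool, and the stromal, endothelial and endocrine values rested on few barcodes. A minority of macrophage barcodes had these genes too. Thinned to 2000 UMIs, the WT and GKO shares were 16.8% and 10.5% for Ccl5 and 4.59% and 9.84% for Ccl7. Without the deepest 10% of barcodes the stromal ratios turned to 0.25 for Ccl7 and 0.26 for Ccl2.

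Ccl5 was at 366 CPM in WT and 224 CPM in GKO macrophage barcodes, its highest class. In the barcodes outside the 4 classes it was at 401 CPM in WT and 227 CPM in GKO. The GKO value there lay within the counting interval of the GKO macrophage value, so these 2 were not ranked. Of its 2418 and 1427 UMIs there, 1639 and 857 lay in barcodes that met none of the marker lists.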

How the results depend on the processing

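In macrophage barcodes 9 of the 10 chemokines kept the direction of their GKO to WT ratio under all 14 alternatives, Ccl2 being the exception. Of these alternatives, 13 were also tried on endocrine barcodes. Cxcl12, with 4 and 26 UMIs, was among the 9. The macrophage count past 2-fold stayed within 1.5 times of 3, a count that includes Cxcl12. Counts were 6 with and 1 without a Mrc1 UMI, alternatives added after seeing the data. The share of all genes past 2-fold was not measured within these sets, so these counts have no background. The WT set with a Mrc1 UMI had 70 barcodes, and Cxcl12, counted there, had 2 WT and 21 GKO UMIs. In stroma 3 of 7 kept their direction throughout. The stromal count past 2-fold, 3 as reported, was 0 with a class limit of 1%, 5 with mixed barcodes kept and 1 without the deepest 10% of barcodes, where Ccl2 turned to 0.26. The endothelial count, 5 as reported, was 3 with a class limit of 1%, 3 with mixed barcodes kept, 0 without the top barcode of each gene and 1 without the deepest 10%. Endothelial Cxcl2 turned to 1.41, 0.62 and 0.068 with class limits of 0.1% and 1% and with mixed barcodes kept. Endothelial Ccl3 and Ccl4 turned to 3.05 and 1.52 with a limit of 0.1%, to 3.38 and 2.57 with 1%, to 1.48 and 0.066 without the top barcode and to 1.46 and 0.20 without the deepest 10%. As reported, Ccl3 had 48 WT and 3 GKO UMIs and Ccl4 121 and 10, most of the WT ones in 1 barcode each. Without its top barcode Ccl3 was under 20 UMIs, so its ratio of 1.48 was not counted as past 2-fold. The endocrine count, 3 as reported, was 1 without the top barcode, and endocrine Ccl5 turned to -1.17 with a hormone limit of 20%. The cause was not tested. The numbers of chemokines highest in macrophage or stromal barcodes and with a larger share in GKO stayed within 1.5 times. The members with a larger share changed with depth, however. Stromal Cxcl16 was at 11.8% in WT and 16.1% in GKO at 2000 UMIs, and at 35.9% and 31.1% at 5000. Stromal Ccl7 went from 5.51% and 5.80% to 9.96% and 7.90%, and macrophage Ccl2 from 13.3% and 15.9% to 20.4% and 19.7%. Stromal Ccl3 and Ccl4, found in few barcodes, became larger in GKO. No paired analysis was possible because each genotype had 1 library, and no replicate could be left out.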
